A study of Mus musculus with 10 samples.

Results

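RAD23B regions inside genes and away from gene starts made up 14190 of the 38822 chromatin regions listed in both wild-type replicates of mouse embryonic stem cells. Replicate 1 listed 59768 regions in all. A region was counted as intragenic when it overlapped a region of replicate 2 and the listed coordinates of a named gene, and lay more than 1 kb from the start of every gene. An overlap of 1 bp was enough, so a region can lie mostly outside its gene. The regions were further selected on the measured read ratio, (RAD23B reads + 1)/(IgG reads + 1), which had to be under 4 in replicate 1. Because those reads chose the regions, ratios in replicate 1 are given below as a description with no test. The other shared regions were 10827 within 1 kb of a start, 11474 outside genes and 2331 with a ratio of 4 or more.

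RAD23B binds XPC and CETN2 in the complex that finds distorted DNA and opens nucleotide excision repair, a pathway that removes bulky lesions. In embryonic stem cells the same complex is also known as a coactivator that works with OCT4 and SOX2 at genes of the pluripotent state. Chromatin immunoprecipitation followed by sequencing recovers DNA near a protein, and an immunoprecipitation with non-specific IgG shows how many reads a place yields without the specific antibody.

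The chromatin libraries came from immunoprecipitation with an antibody to RAD23B or with guinea pig IgG. Cells lacking Xpc (Xpc-/-, from a line the labels do not name) gave 1 library with each. Wild-type cells of D3, an established embryonic stem cell line, gave 2 with each. RNA was sequenced in JM8.N4 cells, another embryonic stem cell line, with 1 library each from Rad23b-/- cells, from Rad23b-/- cells with Xpc knocked down (KD1 and KD2) and from wild-type cells. RNA levels and chromatin regions therefore come from different lines. Material equal to several immunoprecipitations was pooled for each chromatin library, per the labels' protocols.

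The RAD23B library held 109.3 M reads in replicate 1 and 62.53 M in replicate 2, derived from the deposited maxima and RPM values. In the regions compared, the counts of the replicates were closer to each other than independent reads of unselected regions would be. These were 6164 regions whose bounds matched within 30 bp, with under 600 RAD23B and under 300 IgG reads in replicate 1. The chi-square of the split of reads between the replicates was 0.655 per degree of freedom for RAD23B and 0.455 for IgG. Independent reads give 1 in regions not chosen for matching bounds. For the 2335 intragenic regions among them the values were 0.562 and 0.432. In these matched regions the replicates differed by less than such sampling noise, and how far the matching itself lowers the value was not tested. As a caution they were counted as 1 sample, no standard deviation is given, and replicate 2 is not used as an independent check. Why they agree this closely was not tested. With 1 sample there is no test between conditions on chromatin, and intervals below cover counting error only. In the wild-type RNA library all 10 markers of embryonic stem cells had an RPKM (read density per kilobase of transcript, scaled to library size) of at least 1, between 44.6 and 2040, whereas 0 of 6 fibroblast markers reached 1, with Postn and Lum listed at 0. Of the neural markers chosen, Pax6, Nes and Tubb3 lay between 2.78 and 44.2 RPKM, and no value is given for Sox1 and Map2. In primitive endoderm 2 of 5 markers reached 1 with none above 1.26, and 1 of 5 trophectoderm markers did so (Eomes, 14.2). These lists hold genes that stem cells also express, and their part in any result below was not tested.

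Starts of the genes were taken from the listed coordinates and strand. Of 36586 named genes, 13062 shared their coordinates with other genes in merged loci, so 7698 of the 14190 intragenic regions lay in loci where the start of each single gene was not known. The largest such locus, chr8:122434259-126869624 in mm9, is 4.44 Mb long, names 156 genes and held 328 intragenic regions. The remaining 6492 regions lay in loci with the coordinates of 1 gene. Statements on single genes below rest on these, except where merged loci are named.

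No sequence of the regions themselves is shown. The start windows of 4 genes that hold many intragenic regions are printed instead, to set genes with a RAD23B region at the start beside genes without one: 250 bases before to 50 after the start, from RefSeq on GRCm38, 5′ to 3′, with each CG dinucleotide in capitals. Zfp423 (chr8:87959546-87959845, minus strand) and Sipa1l3 (chr7:29505411-29505710, minus strand) had a shared RAD23B region within 1 kb of the start. Nmnat2 (chr1:152954851-152955150, plus strand) and Trak1 (chr9:121297252-121297551, plus strand) had none.
Zfp423: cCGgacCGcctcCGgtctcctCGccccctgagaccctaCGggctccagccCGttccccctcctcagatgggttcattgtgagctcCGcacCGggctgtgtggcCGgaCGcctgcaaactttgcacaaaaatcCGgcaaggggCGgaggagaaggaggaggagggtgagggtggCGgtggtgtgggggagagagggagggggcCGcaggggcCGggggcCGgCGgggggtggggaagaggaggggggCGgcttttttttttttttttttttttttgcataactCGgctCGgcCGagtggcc
Sipa1l3: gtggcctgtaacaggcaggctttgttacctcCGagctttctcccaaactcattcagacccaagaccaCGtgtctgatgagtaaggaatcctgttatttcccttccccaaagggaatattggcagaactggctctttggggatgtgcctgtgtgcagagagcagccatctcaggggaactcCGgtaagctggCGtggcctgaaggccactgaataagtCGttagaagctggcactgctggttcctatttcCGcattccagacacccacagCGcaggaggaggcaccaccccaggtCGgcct
Nmnat2: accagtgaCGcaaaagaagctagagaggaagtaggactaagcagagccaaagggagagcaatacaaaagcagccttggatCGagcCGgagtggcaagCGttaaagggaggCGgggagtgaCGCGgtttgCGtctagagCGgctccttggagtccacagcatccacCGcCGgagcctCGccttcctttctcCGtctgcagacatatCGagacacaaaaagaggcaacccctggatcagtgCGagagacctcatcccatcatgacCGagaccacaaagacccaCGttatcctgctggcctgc
Trak1: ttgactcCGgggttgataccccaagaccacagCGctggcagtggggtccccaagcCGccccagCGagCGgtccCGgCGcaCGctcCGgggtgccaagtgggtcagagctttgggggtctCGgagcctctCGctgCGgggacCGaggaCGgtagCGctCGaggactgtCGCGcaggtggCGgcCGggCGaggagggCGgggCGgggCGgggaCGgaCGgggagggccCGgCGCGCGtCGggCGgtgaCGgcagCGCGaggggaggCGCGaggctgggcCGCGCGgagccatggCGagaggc
The windows with a region hold 21 CG (Zfp423) and 8 CG (Sipa1l3), against 17 (Nmnat2) and 41 (Trak1) in those without. These 4 windows do not stand for all hosts. Among protein-coding hosts whose window was in the table, the median was 22 CG in those with a region at the start and 8 CG in those without, and 85.8% and 44.6% held at least 10 CG. Only 69.7% and 67.9% of these hosts had a window, too few for a check over all hosts, which is therefore void. Of 27025 RefSeq windows of this length, 44.0% hold at least 10 CG, counted as the letters CG, which read the same on both strands.

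The typical intragenic region was narrow and about 2-fold over IgG. In replicate 1 the median region was 560 bp wide and held 162 RAD23B reads and 79 IgG reads, for a median ratio of 2.02 with quartiles of 1.69 and 2.54. In replicate 2 the medians were 74 RAD23B reads, 34 IgG reads and a ratio of 2.14, with quartiles of 1.78 and 2.68. The intragenic ratio stood between those of the other weak classes: regions outside genes had medians of 2.16 and 2.28 in replicates 1 and 2, and regions at starts 1.88 and 1.88. Strong regions, those of ratio 4 or more, had medians of 4.61 and 4.61. Across the 14190 regions the ratios of the replicates had a Spearman correlation of 0.814, given as a description. In replicate 2 the ratio reached 4 in 508 intragenic regions (3.58%).

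**Figure D1:**
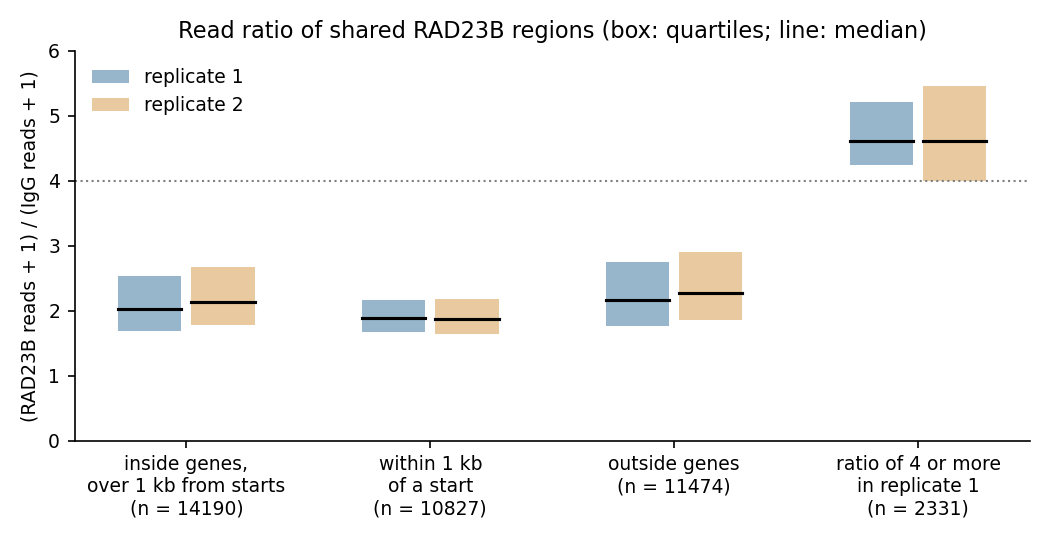
Ratio of RAD23B to IgG reads (1 added to both) on the y axis for 4 classes of shared regions on the x axis, with boxes from the lower to the upper quartile, a line at the median, and blue and orange for replicates 1 and 2. Intragenic regions have medians of 2.02 and 2.14, above regions at starts (1.88 in both replicates) and below regions outside genes (2.16 and 2.28), and the dotted line marks the ratio of 4 that the selection used.

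IgG signal at the same places was common. The authors' list of replicate 1 records overlap with regions called in the IgG library, and this held for 7299 intragenic regions, 51.4% (95% Wilson interval 50.6 to 52.3). The share was 42.5% (41.6 to 43.4) outside genes, 78.8% (78.0 to 79.5) at starts and 15.96% (14.5 to 17.5) among strong regions. In the list of replicate 2 the shares were lower but in the same order. They were 33.2% (32.45 to 34.0) of intragenic regions, 25.9% outside genes, 65.35% at starts and 7.89% among strong regions. Intragenic regions with an IgG region in replicate 1 had a median of 217 RAD23B and 113 IgG reads and a ratio of 1.78. Those without one had 127 and 56 reads and a ratio of 2.33. Per kb of region the medians were 276 RAD23B reads and 140 IgG reads over all intragenic regions in replicate 1. The reads of the RAD23B and IgG libraries had a Spearman correlation of 0.861 across them, where both counts grow with the width of the region.

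At the edge of the ratio threshold, the selected regions nearest to 4 were chr14:65026920-65027730 in Msra, with 402 RAD23B and 100 IgG reads (ratio 3.99, and 3.88 in replicate 2), and chr6:34667081-34667772 in the merged Cald1 locus, with 278 and 69 reads (3.99, and 3.79). The nearest regions left out were chr1:162664735-162665439 in the merged Rabgap1l locus (307 and 76 reads, ratio 4.00) and chr10:7337295-7338039 in the merged Lrp11 locus (175 and 43 reads, ratio 4.00). At the edge of the distance rule, regions 1001 bp from the starts of Ampd2 (in a merged locus) and Fam167b were kept. Regions 1000 bp from Trp53rk and 999 bp from Hmg20b were not.

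The 5 intragenic regions with the highest replicate 2 ratio rested on 5 to 8 IgG reads in that replicate and were 250 to 776 bp wide. The highest, chr3:146135691-146135992 in the merged locus that holds Gng5, had 56 RAD23B and 6 IgG reads in replicate 2 (ratio 8.14, with an exact Clopper-Pearson interval of 4.03 to 26.5 for the quotient of the reads) but 74 and 19 reads in replicate 1 (3.75). Next came a region in the merged Wdfy3 locus (chr5:102484120-102484896; 68 and 8 reads, ratio 7.67) and one in the merged locus of Sox2 (chr3:34381018-34381471; 52 and 6 reads, ratio 7.57). The remaining 2 of the 5 highest were in the merged Shroom3 locus and in Stard8, each with 42 RAD23B and 5 IgG reads and a ratio of 7.17. All 5 passed as intragenic on replicate 1 ratios between 3.15 and 3.86.

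Regions with the most reads were of another kind: wide and nearly level with IgG. The largest lay in the merged 156-gene locus, which names many 5S ribosomal RNA genes and in which single gene starts are not known. This region, chr8:126060963-126124343, spanned 63380 bp. Replicate 1 had 35976 RAD23B and 30126 IgG reads there (ratio 1.19), and replicate 2 had 13010 and 10156 (1.28). Its neighbour chr8:126124432-126148578 held 16211 and 13071 reads (1.24). A region of 12127 bp at chr8:19890286-19902413 held 10770 RAD23B and 9922 IgG reads, a ratio of 1.09, the lowest of all intragenic regions. The other 2 of the 5, on chromosomes X and 8, had ratios of 1.32 and 1.19.

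Genes read out in stem cells held more intragenic regions per length than silent genes. Among protein-coding genes with coordinates of their own, those listed at 0 RPKM in wild-type JM8.N4 cells held 3.55 regions per Mb of gene (185 regions in 4137 genes), and those above 0 but under 0.1 RPKM held 5.91. The density was 14.3 per Mb between 0.1 and 1 RPKM, 19.3 between 1 and 5, 19.2 between 5 and 20, and 20.2 at 20 RPKM or more (1628 regions in 3055 genes). Density therefore climbed up to about 1 RPKM and was level above it. Leaving out chromosome 8, the lowest and highest classes held 3.36 and 19.4 per Mb. Of all 14190 intragenic regions, 11035 (77.8%; 77.1 to 78.4) lay in a locus with a gene at 1 RPKM or more, and such loci made up 56.7% of the summed locus length.

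**Figure D2:**
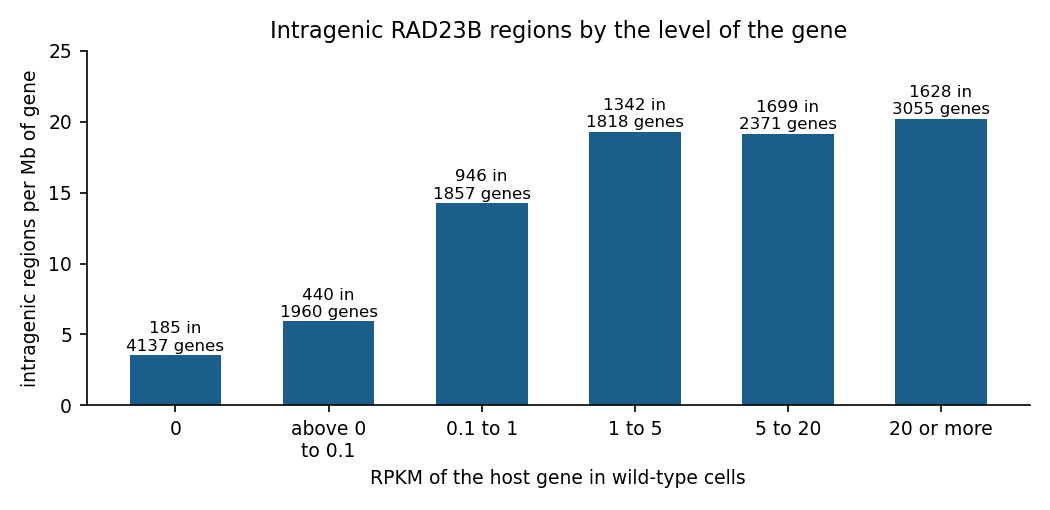
Intragenic RAD23B regions per Mb of gene (y axis, from 0) by the wild-type RPKM class of the protein-coding host gene (x axis), with the number of regions and genes over each bar. The bars climb from 3.55 per Mb in genes listed at 0 to 19.3 per Mb at 1 to 5 RPKM and stay near that level up to 20.2 per Mb at 20 RPKM or more.

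The gap between active and silent genes was present at every gene length examined. In genes of 10 to 30 kb the density was 28.2 per Mb at 1 RPKM or more and 16.4 per Mb under 1 RPKM. In genes of 30 to 100 kb it was 18.5 and 9.29 per Mb, and in genes of 100 kb or more 13.6 and 3.53 per Mb. Active genes with a RAD23B region at their start held 20.2 intragenic regions per Mb, against 17.1 in active genes without one. Among genes under 1 RPKM the same values were 12.1 and 6.43. The regions themselves differed little between these hosts: the median replicate 1 ratio was 1.92 in genes listed at 0 and 2.09 in genes of 20 RPKM or more, with 46.5% and 53.4% overlapping an IgG region.

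Intragenic regions were less dense at greater distances from the start. Only long genes reach the far distances. Active genes of 100 kb or more held 13.6 per Mb as a whole, against 28.2 in those of 10 to 30 kb. The part of gene length in the values by distance was not tested. In active genes the density was 35.9 per Mb at 1 to 5 kb from the start, 28.2 at 5 to 10 kb, 22.0 at 10 to 20 kb, 16.8 at 20 to 50 kb, 13.7 at 50 to 100 kb and 10.6 beyond 100 kb. In genes under 1 RPKM it went down over the same distances from 16.4 per Mb to 2.94 per Mb. The ratio moved the other way: its replicate 1 median was 1.96 at 1 to 5 kb and 2.18 at 100 kb or more, and IgG reads per kb were 145 and 127 at those distances. The share overlapping an IgG region was 55.7% at 1 to 5 kb and 38.1% at 100 kb or more. On the scale of the whole gene the spread differed between active and silent hosts. Of 5597 regions in protein-coding genes of at least 10 kb, 10.4% lay in the first 10% of the gene, 12.0% in the next 10%, 8.20% in the sparsest such stretch and 11.6% in the last, and 52.8% lay nearer to the start than to the end. In active genes the first and last stretches held 481 and 450 regions, and in genes under 1 RPKM 99 and 197. The rule on distance removes the first 1 kb of each gene, which lowers the count of the first stretch.

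**Figure D3:**
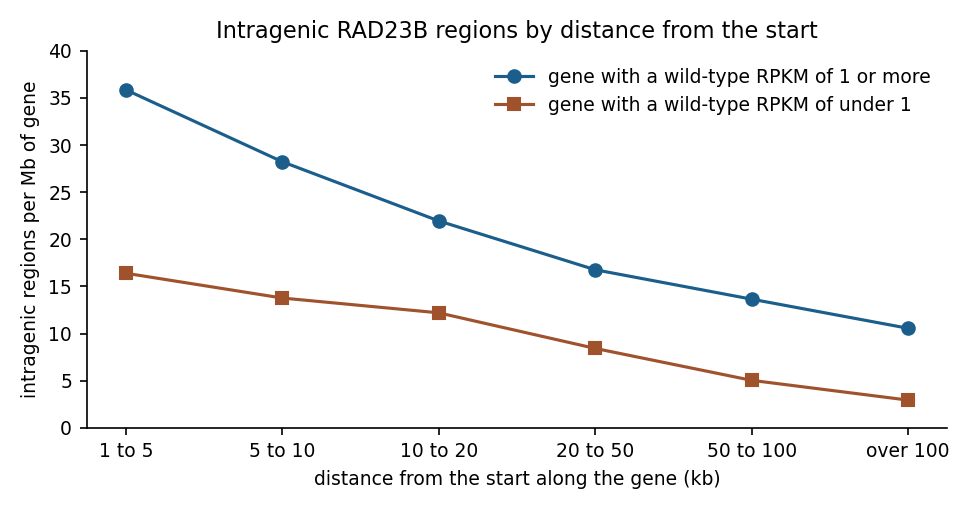
Intragenic RAD23B regions per Mb of gene (y axis) by distance from the gene start (x axis, kb) in protein-coding genes with a wild-type RPKM of 1 or more (blue circles) and under 1 (brown squares). Active genes lie above silent ones at each distance, from 35.9 against 16.4 per Mb at 1 to 5 kb to 10.6 against 2.94 per Mb beyond 100 kb.

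Neighbouring intragenic regions of a locus were separated by a median of 5948 bp (quartiles 1429 and 19180). Another shared region of any class lay within 5 kb of 53.6% of intragenic regions (52.8 to 54.4), against 51.3% (50.4 to 52.2) of regions outside genes and 44.8% (43.9 to 45.7) of regions at starts. Most hosts held few: of 3335 genes with coordinates of their own that held any, 1967 held 1 region, 1150 held 2 to 4, 178 held 5 to 9 and 40 held 10 or more. These 3335 were 14.2% of the 23524 genes with own coordinates, and protein-coding hosts were 20.9% of 15198 (3169 genes). Hosts were longer than other genes, with medians of 28.9 kb against 2.47 kb, which bears on every count of hosts. Among other types, 135 of 1013 lincRNA genes were hosts (13.3%) and 1 of 705 microRNA genes, Mir124a-1. The distance rule bars genes shorter than 1 kb, and the median microRNA gene is listed at 0.095 kb, so that count is largely set by the rule. Such short genes are also among the 23524.

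The genes that held the most regions were long and active. Zfp423, a zinc-finger transcription factor gene of 298 kb at chr8:90185708-90483494, held 27, spread from 1.46 to 298 kb from its start. Their ratios ran from 1.34 to 2.46 in replicate 1 and from 1.42 to 2.71 in replicate 2, so none approached 4. The Zfp423 region farthest from the start, chr8:90184417-90185799, overlapped the gene only at its edge. Sipa1l3, of a family of Rap GTPase-activating proteins, held 22 regions with ratios of 1.41 to 3.66, and Btbd11, a BTB and ankyrin-repeat protein gene, held 21 with 1.39 to 3.89. Nmnat2, an enzyme of NAD synthesis in axons, held 18 with ratios up to 3.88 and none within 21.6 kb of its start. Slc10a7, a solute carrier gene, also held 18. Trak1 (a kinesin adaptor of mitochondria), Epb4.1l4a (a band 4.1 family gene) and Dlc1 (a GTPase-activating protein) held 16 each. Cbx7, the Polycomb chromodomain protein of embryonic stem cells, and Ahdc1, an AT-hook gene, held 15 each. Wild-type levels of these 10 genes ranged from 3.28 RPKM (Btbd11) to 54.5 RPKM (Dlc1).

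Per length, the densest hosts with at least 3 regions were short. Ppp1r14a, an inhibitor of myosin phosphatase, held 3 regions in 4.07 kb, or 0.737 per kb, against 0.0907 per kb in Zfp423. Its widest region (chr7:30077761-30079749) ran past the gene end at 30078409, and a region was counted whole at any overlap. The lincRNA gene 2810410L24Rik held 3 in 4.45 kb, Mir124a-1, the gene of a neuronal microRNA, 3 in 5.85 kb, and Rinl, a Rab-interacting protein gene, 5 in 10.0 kb. The signalling ligand gene Wnt10b held 3 in 6.40 kb and the mitochondrial sirtuin gene Sirt4 held 3 in 6.72 kb. Smagp held 7 in 15.5 kb, and 1500009C09Rik, Gm16517 and Upk3b completed the 10. Activity did not mark them all: wild-type RPKM was 22.2 for Smagp and 10.7 for Rinl, but 0.0396 for Wnt10b, 0.059 for 2810410L24Rik and 0.145 for Upk3b.

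The pluripotency genes held intragenic regions, and Esrrb held the most of those with own coordinates. Of 27 such genes, 14 (51.9%) were hosts with 41 regions, beside 20.9% of all protein-coding genes and 30.1% of those at 1 RPKM or more. The median gene of the list was 7.15 kb long and stood at 68.3 RPKM. The list is small, and its share was not tested against these values. Esrrb, an orphan nuclear receptor gene of naive cells (chr12:87702066-87862578), held 14 intragenic regions between 37.9 and 147 kb from its start. No shared region lay within 1 kb of the Esrrb start, and 3 strong regions lay in the gene besides. The Esrrb region with most contrast, chr12:87845097-87845905, counted 406 RAD23B and 108 IgG reads in replicate 1 (ratio 3.73; counting interval 3.03 to 4.69), with 181 and 39 in replicate 2 (4.55; 3.27 to 6.74). The weakest, chr12:87824358-87824817, held 107 and 78 reads (1.37; 1.02 to 1.86) and 60 and 33 (1.79; 1.17 to 2.87). Regions of the gene thus ranged from close to IgG to near the strong class.

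Nr5a2, a nuclear receptor gene acting on Pou5f1, held 6 intragenic regions, all between 2.06 and 14.9 kb from its start, with ratios of 1.89 to 3.56 in replicate 1 and 2.18 to 3.28 in replicate 2. Tet2, an enzyme that oxidises methylcytosine, held 5 with ratios of 1.71 to 3.43, and Sall1, a zinc-finger gene, 3 with ratios of 1.35 to 1.83. Pou5f1 and Klf4 held 1 each and Nanog 0. Sox2 lies in a merged locus of 578 kb and 7 genes that held 11 intragenic and 3 strong regions, which cannot be tied to Sox2 itself.

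**Figure D4:**
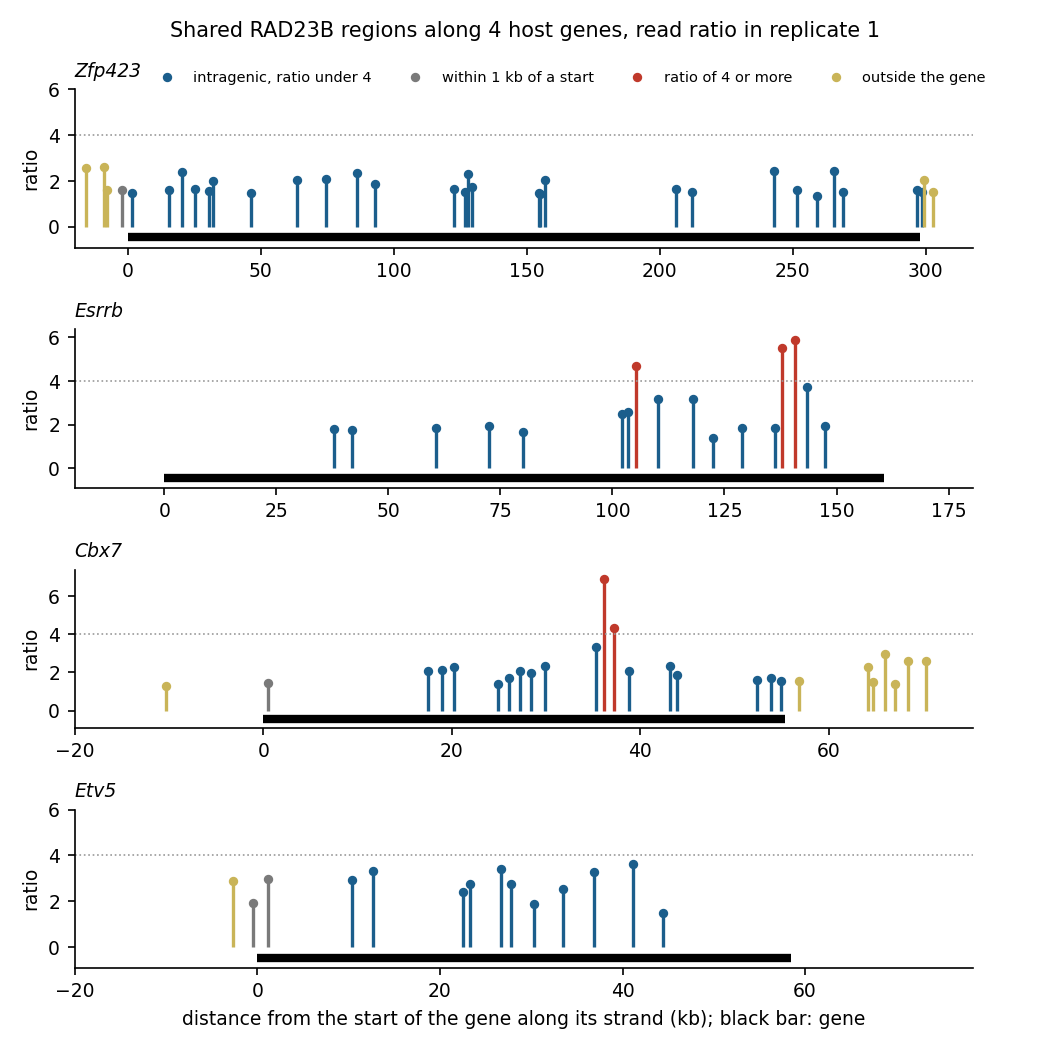
Shared RAD23B regions along Zfp423, Esrrb, Cbx7 and Etv5 (top to bottom), placed by distance from the gene start in kb (x axis), with the replicate 1 read ratio as height (y axis) and the gene as a black bar. Zfp423 carries 27 regions of ratio 1.34 to 2.46 along its whole length, Esrrb 14 from 37.9 kb on among 3 strong regions in red, Cbx7 15 and Etv5 11, and the dotted line is the ratio of 4.

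Among signalling genes the hosts included receptors, inhibitors and nuclear targets. The lists hold few genes, and their shares of hosts were not tested against those of all genes. The shares of hosts in the lists below stand beside 20.9% of all protein-coding genes, 30.1% of those at 1 RPKM or more and, since long genes are hosts more often, 42.5% of those at 1 RPKM or more that span 30 to 100 kb. In the FGF and ERK pathway 11 of 14 genes (78.6%, median length 15.5 kb) were hosts with 28 regions. Etv5, an ETS factor downstream of FGF, held 11 with ratios of 1.47 to 3.65, all between 10.4 and 44.4 kb from the start. Spred2, an inhibitor of ERK signalling, held 6, while Etv4, a further ETS factor, and Sos1, an exchange factor for RAS, held 2 each. In the Nodal, Activin and BMP pathway 10 of 20 genes (50%, 34.8 kb) were hosts with 33 regions. The 4 with the most were genes of negative regulators: Pmepa1 (8), the SMAD co-repressor Ski (7), and the inhibitory SMAD genes Smad6 (6) and Smad7 (4). Other genes of inhibitors in this list held fewer, with 2 in Lefty1 and 0 in Lefty2 and Skil. In Ski the ratios ran from 1.45 to 3.88.

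In the LIF and STAT3 pathway 5 of 9 genes (55.6%, 31.9 kb) were hosts. The LIF receptor gene Lifr held 7 regions with ratios of 1.43 to 2.77. The ligand gene Lif, the adaptor gene Gab1 and the feedback inhibitor gene Socs3 held 2 each. Of the Socs3 regions, chr11:117826158-117827408 lay mostly outside the gene, whose listed coordinates begin at 117827392. In the Wnt pathway 6 of 13 genes (46.2%, 57.1 kb) were hosts, with 4 regions in the co-repressor gene Tle3, 3 in the receptor gene Fzd5 and 2 each in the receptor gene Fzd7 and the nuclear factor gene Lef1. Among chromatin regulators 8 of 17 (47.1%, 77.8 kb) were hosts, including Tet2, Arid1a (3 regions) and Mbd3 (2).

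Of 18 genes of nucleotide excision repair with own coordinates, at a median of 42.1 RPKM, 14 had a region at the start but 3 (16.7%, 26.4 kb) were hosts. The share was 20.9% of all protein-coding genes, 30.1% of those at 1 RPKM or more and 29.1% of the latter at 10 to 30 kb. With 18 genes it cannot be placed among these. Each host held 1 region: the nuclease gene Ercc4 (chromosome 16, 168 RAD23B and 42 IgG reads, ratio 3.93), the polymerase gene Pold1 (149 and 98 reads, 1.52) and the single-strand binding protein gene Rpa1 (73 and 46 reads, 1.57). Rad23b, Xpc and Cetn2 themselves held 0. Genes of cytosolic ribosomal proteins, at a median of 1582 RPKM and 3.23 kb, had a region at the start in 17 of 19 cases and an intragenic region in 2 (10.5%).

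Genes of other lineages were hosts as well, beside 20.9% of all protein-coding genes. The share was 12.4% of those under 1 RPKM and 30.1% of those at 1 RPKM or more. In genes of 10 to 30 kb it was 19.0% and 29.1%, and the median primitive endoderm gene spanned 18.2 kb. These lists mix genes under and over 1 RPKM: the median was 8.29 RPKM in the trophectoderm list and 0.281 RPKM in the primitive endoderm list. They hold few genes, and their shares were not tested against these values. In primitive endoderm 6 of 11 genes (54.5%) held 7 regions in all, among them 1 each in Apoa1, Gata4 and Lama1. In trophectoderm 6 of 13 (46.2%) held 12, of which Tead4, a transcription factor gene at 12.0 RPKM, had 6 with ratios of 2.06 to 3.71, Gata2 had 2, and Cdx2 and Esx1 had 1 each. In neural ectoderm 3 of 8 (37.5%) were hosts (Nes, Otx1 and Zic2, 1 region each), and the Nes region counted 519 RAD23B and 148 IgG reads in replicate 1 (ratio 3.49), with 280 and 60 in replicate 2 (4.61). In mesoderm and primitive streak 2 of 15 (13.3%) were hosts, Wnt3 with 3 and Wnt3a with 1. Silent genes of neuronal adhesion and synapse, with a median length of 579 kb, held 1 region each in 4 of 5 cases (Dscam, Gria1, Kcnma1 and Lsamp). That was 1.51 per Mb, beside 14.5 over all protein-coding genes and 3.53 in those under 1 RPKM of 100 kb or more. The Gria1 region was nearly level with IgG, with 796 RAD23B and 611 IgG reads (1.30).

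Chromosomes differed in density. Protein-coding genes with own coordinates held 29.7 intragenic regions per Mb on chromosome 8, 28.4 on 15, 25.5 on 11 and 1.25 on X, beside 14.5 overall. IgG reads per kb at intragenic regions in replicate 1 were 166 on chromosome 8, 160 on 15, 145 on 11 and 113 on X, and RAD23B reads per kb were 289, 283, 279 and 258. Median ratios were 1.74 on chromosome 8, 1.81 on 15, 1.99 on 11 and 2.24 on X. The 3 densest chromosomes thus had the most IgG reads per kb, and the part of IgG signal in their counts was not tested. Denser chromosomes mostly had lower ratios: 7 and 17 held 18.3 and 18.1 per Mb at 1.98 and 1.94, and 13 held 8.70 at 2.25. The order was not strict: chromosome 4 held 20.5 per Mb at a median ratio of 2.10, and chromosome 14 held 9.38 per Mb at 2.06. Strong regions were spread otherwise, with 67 on chromosome 8 and 122 on X.

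Few intragenic regions were listed in Xpc-/- cells. That list named 828 regions, at 145.1 M reads, and 163 of the 14190 intragenic regions overlapped one (1.15%; 0.986 to 1.34), beside 0.654% (0.522 to 0.819) outside genes, 2.15% (1.90 to 2.44) at starts and 0.300% (0.146 to 0.619) of strong regions. Chromosome 8 held 96 of the 163, which is 6.70% of its intragenic regions, against 0.525% on the other chromosomes. The regions that overlapped had a median of 382 RAD23B and 203 IgG reads in wild-type replicate 1, against 162 and 79 in those that did not, and ratios of 1.73 and 2.02. An IgG region was recorded at 92.0% of the overlapping regions and 51.0% of the rest. In the Xpc-/- list the authors' fold follows the reads headed IgG over the reads headed RAD23B, so whether it lists RAD23B or IgG signal is not known. It gives no reads at places it does not list, so the level of RAD23B at the other regions in Xpc-/- cells was not measured here.

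The levels of the targeted genes were read first. Rad23b stood at 43.9 RPKM in Rad23b-/- cells, 35.9 in KD1 and 52.5 in KD2, against 229 in wild-type cells. Xpc stood at 8.34, 0.915 and 0.895 RPKM in those 3 libraries, against 8.73 in wild-type cells. Both genes were lowest where the labels place their loss, with Rad23b RNA still present in the Rad23b-/- libraries. With 1 library a group no change has a replicate check, and the 3 mutant libraries share 1 wild-type library.

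Genes that hold intragenic regions were 2-fold apart after Rad23b loss at shares close to those of all genes. Differences are log2 ratios of RPKM + 1, which understate the change of low genes, among genes at 1 RPKM or more in either library. In Rad23b-/- cells 273 of 6079 such genes on loci with an intragenic region, merged loci included, were at least 2-fold higher (4.49%; 4.00 to 5.04). The share of all 15040 genes was 4.74%. At least 2-fold lower were 267 (4.39%; 3.91 to 4.94), beside 4.61% of all. In KD1 200 were higher (3.34%; 2.92 to 3.83) and 190 lower (3.18%; 2.76 to 3.65), beside 3.95% and 3.4% of all genes. In KD2 225 were higher (3.74%; 3.29 to 4.25) and 220 lower (3.66%; 3.21 to 4.16), beside 3.93% and 3.6%. The share of all genes lay inside the interval of the hosts in 5 of the 6 cases, and in KD1 it lay above the interval for higher genes. Among genes with own coordinates the KD1 share of higher genes was 2.67% of hosts (2.09 to 3.41), beside 3.77% of all. The median log2 ratio of all genes in Rad23b-/- over wild type was -0.16, and that of the host genes -0.12. Relative to the median of all genes, 6.07% of host genes were higher and 2.96% lower, beside 6.20% and 3.07% of all.

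Hosts without a region at the start were higher in Rad23b-/- cells more often, as were other genes without one. Among hosts with own coordinates, 41 of 505 with no region at the start were at least 2-fold higher (8.12%; 6.04 to 10.8), against 49 of 1855 with one (2.64%; 2.004 to 3.48). Among genes that held no intragenic region the same shares were 7.21% of 2651 and 2.67% of 4044. The median wild-type level was 5.17 RPKM in hosts without a region at the start and 11.9 RPKM in hosts with one, and the part of this level in the difference was not tested.

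Of the hosts at least 2-fold lower in Rad23b-/- cells, Esrrb held the most intragenic regions (14). Its level was 51.5 RPKM in Rad23b-/- cells, 77.0 in KD1 and 60.2 in KD2, against 161 RPKM in wild-type cells, a log2 ratio of -1.63 in Rad23b-/- over wild type and -1.02 and -1.39 in KD1 and KD2. Nxn, a thioredoxin family gene with 13 regions, stood at 17.7, 24.6 and 23.0 RPKM against 63.7 in wild-type cells (log2 ratio -1.79 in Rad23b-/-). The postsynaptic scaffold gene Dlgap3 (9 regions) and the stress-induced kinase gene Sgk1 (8) were at -1.20 and -1.26, and Crtac1 (8) at -1.33. All 5 were lower in each of the 3 mutant libraries than in the wild-type library.

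Of the hosts at least 2-fold higher, Arhgap8, a GTPase-activating protein gene with 8 intragenic regions, stood at 12.7 RPKM in Rad23b-/- cells, 9.90 in KD1 and 9.33 in KD2, against 5.06 in wild-type cells. The retinoic acid receptor gene Rarg (6 regions) stood at 94.4, 86.5 and 96.5 RPKM against 36.0, a log2 ratio of 1.37. The nuclear lamina gene Lmna (5) was at 34.3, 26.2 and 24.3 RPKM against 15.3. Amz1 and Creb3l1, with 4 regions each and none at the start, were at 2.10 and 5.30 RPKM in Rad23b-/- cells against 0.430 and 1.99. All 5 were higher in each of the 3 mutant libraries, and at least 2-fold in all 3 for Rarg, Amz1 and Creb3l1.

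**Figure D5:**
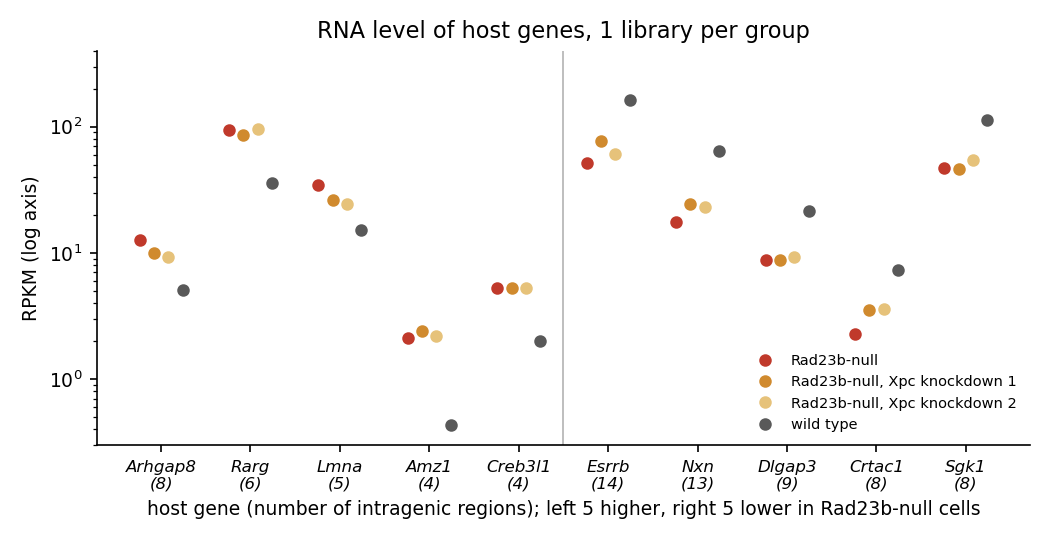
RPKM on a log axis (y) for the 10 host genes at least 2-fold apart that held the most intragenic regions (x axis, number of regions in brackets), with 1 point for each library: Rad23b-/-, KD1 and KD2 in red and orange and wild type in grey. The wild-type point is below all 3 mutant points in the 5 genes on the left, such as Rarg (36.0 RPKM), and above them in the 5 on the right, such as Esrrb (161 RPKM).

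Most of the richest hosts did not pass the 2-fold line. Among the 10 genes with the most intragenic regions, the log2 ratio of Rad23b-/- over wild type ran from -0.71 (Epb4.1l4a) to 0.99 (Zfp423). Zfp423 stood at 16.2, 16.3 and 16.2 RPKM in the Rad23b-/-, KD1 and KD2 libraries against 7.70 in the wild-type library. With 1 added to each RPKM, this was just under 2-fold in the Rad23b-/- library and just over it in KD1 and KD2. Adding 1 lowers such a quotient, so genes this close to the line can pass it on plain RPKM. Nr5a2 was at 10.2, 11.7 and 11.5 RPKM against 21.0 in wild-type cells, a log2 ratio of -0.98 in Rad23b-/- cells. Mir124a-1 was at 1.02, 0.932 and 8.55 RPKM against 19.5, with the mutant libraries far apart. Of 193 own-coordinate hosts with 5 or more intragenic regions, 3 were at least 2-fold higher (1.55%; 0.530 to 4.47) and 10 at least 2-fold lower (5.18%; 2.84 to 9.27) in Rad23b-/- cells, beside 4.30% and 4.22% of all genes with own coordinates, which both lie inside those intervals.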

How the data were processed

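Chromatin libraries were sequenced from wild-type D3 and Xpc-/- embryonic stem cells, and poly-A RNA from JM8.N4 cells. The authors deposited region lists in mm9, made with Partek per the submitters' processing notes. Aligner, thresholds and calling settings of these lists were not given in the sources used here. Per the file headers, each list gives counts of RAD23B and IgG reads per region, a maximum and its RPM, a scaled fold (the authors' ratio of the libraries), p-values and the fraction of a region that overlaps regions called in either library. In replicate 2 the headings name replicate 1 libraries, and the headings of the overlap columns appear exchanged. RPKM, ratio and p-values were deposited by the authors for 1 mutant against wild type in each table. The submitters' processing notes name Cuffdiff, Cufflinks 2.0.2, TopHat2 2.0.6 and mm9. An RPKM of exactly 1 stood in 13889 wild-type values and was read as 0. The 72 lines naming no gene (0.00144% of wild-type RPKM) were left out. The authors' p-values were not used.

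Overlap meant at least 1 bp. A start was the end of the listed coordinates given by the strand. Density per Mb divided regions by gene length less 1 kb, and density per kb of single genes by the full gene length. Percent shares computed from the deposited lists carry 95% Wilson intervals and quotients of reads exact Clopper-Pearson ones, which cover counting error only. Each RNA ratio took its denominator from its own deposited table. Steps were tested on simulated data. Python 3.11.15, numpy 2.4.6, pandas 2.3.3, scipy 1.17.1 and matplotlib 3.10.9 were used. The intragenic regions, gene lists and tests were chosen with earlier results of these data known. Genes were named by rule: the 10 own-coordinate loci with most regions, the 10 densest with at least 3, the 5 regions with the highest replicate 2 ratio and the 5 with most reads, up to 4 genes per list, regions at the thresholds, Rad23b, Xpc and Cetn2, and up to 5 hosts per direction at least 2-fold apart. Pou5f1, Klf4, Nanog and Sox2 and the marker genes were named after their values were seen. Other settings tried were the distance, ratio, overlap, reads added, RPKM minimum, pseudocount, centring, and leaving out a replicate, merged loci or chromosome 8. No test between conditions was made because the replicates counted as 1 sample and RNA had 1 library per group. Some genes that the naming rule picks are not reported here.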

Additional observations from a re-analysis of the deposited data

How the results depend on the processing

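Of 33 recomputed values, 16 stayed within the counting interval of the value given above, or within 1.5 times it for the number of regions, and 17 did not. Restricting loci to those with coordinates of 1 gene gave 6492 regions, a median replicate 2 ratio of 2.18, 72.8% in active loci, 0.724% overlapping an Xpc-/- region and 7.42% of host genes at least 2-fold apart in Rad23b-/- cells, against 8.88% with merged loci. Taking regions over 5 kb from every start gave a median ratio of 2.17 and 78.5% in active loci, and a ratio under 3 gave a median of 2.04. With either replicate left out the number of regions ran from 15490 (without replicate 1) to 23260 (without replicate 2), the share in active loci from 76.35% to 77.73% and the Xpc-/- overlap from 0.774% to 1.08%, and the median ratio was 2.08 without replicate 1. Adding 10 reads to both libraries gave a median ratio of 1.90. At an RPKM of at least 5 the share in active loci was 60.1%. Without chromosome 8 the Xpc-/- overlap was 0.525%. With a pseudocount of 0.1 the host genes at least 2-fold apart were 14.2% (14.5% of all genes). With no RPKM minimum they were 4.86%, and the share of all genes at that setting is not given. The cause of these shifts was not tested, beyond the fewer regions, genes or reads that each setting keeps by construction. No paired analysis was possible because the 2 numbered pairs of RAD23B and IgG libraries counted as 1 sample, and each ratio was taken within its own pair. Depth limits single regions: at the median of 34 IgG reads in replicate 2 a ratio carries wide counting error. Starts inside merged loci are not known, the alternative starts of a gene were not used, and the RNA comes from another line with 1 library per group.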

Other observations

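The replicate 1 list held a further 9070 regions that met the same rule but overlapped no region of replicate 2, so 23260 regions met it in replicate 1 alone. Strong regions inside genes and over 1 kb from starts numbered 876, of which 76.1% (73.2 to 78.9) lay in a locus with a gene at 1 RPKM or more, beside 77.8% of the weaker intragenic regions. Their density in protein-coding genes was 0.211 per Mb in genes listed at 0 RPKM and 1.40 per Mb in genes of 20 RPKM or more. Esrrb (3), Nr5a2 (2) and Cbx7 (2) each held strong regions beside their weaker ones, and Zfp423, Etv5 and Smad6 held 0.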
